A study of Oryza sativa with 30 samples.

Results

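LOG and the cytokinin oxidase genes of rice (Oryza sativa) were followed in shoot apices while plants moved from long to short days. LOG (LONELY GUY) encodes the phosphoribohydrolase that turns inactive cytokinin nucleotides into the active free bases, and cytokinin oxidases (CKX) cleave and so inactivate those bases. Cytokinin keeps shoot meristem cells dividing. In rice, loss of LOG ends the meristem early and leaves small panicles, whereas loss of CKX2 (Gn1a) raises the number of grains per panicle. LOG and 6 CKX genes (CKX2, CKX3, CKX4, CKX5, CKX9 and CKX11) were chosen by gene name. They are 7 of the 55986 loci in the count files, and all 7 were among the 22839 loci that passed the filter on low counts. CKX1, which is not among the 7, had 0 counts in all 23 libraries.

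Both cultivars, Nipponbare (NB) and Taichung 65 (T65), are temperate japonica rice with no transgene or mutant allele in the labels. Plants were 6 weeks old when moved from 16 h light and 8 h dark to 10 h light and 14 h dark, with days at 28 °C and nights at 24 °C. Dissected apices were taken before the move (day 0) and after 4, 8 and 12 short days. There were 3 libraries in 7 of the 8 groups and 2 in T65 day 12.

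Total counts per library ranged from 8.61 to 24.9 M (1e+06), and 3 counts corresponded to 0.112 to 0.347 CPM (counts per M, with library sizes scaled by TMM). Reads aligned to several places came to 5.76 to 6.71% of assigned reads in 7 libraries and to 9.59 to 10.9% in the other 16. The 7 libraries include none of NB day 0, NB day 4 or T65 day 12, so day-12 results are also given within the 16. All 5 shoot meristem markers (OSH1, OSH15, OSH43, FON1 and WOX4) had counts, with summed levels of 240 to 302 CPM at NB day 0 and 280 to 307 CPM at NB day 12. In T65 they summed to 271 to 340 CPM on day 0 and 261 to 315 CPM on day 12. Median sums were lowest on day 8, with libraries at 209 to 284 CPM in NB and 216 to 240 CPM in T65. The part of these markers in the results was not tested. OSH43 was near 0, with a highest value of 0.318 CPM. Transcript lengths were not at hand, so levels are compared between groups for each gene and not between genes. In whole apices, fewer cells of a type and less RNA per cell cannot be told apart.

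**Figure D1:**
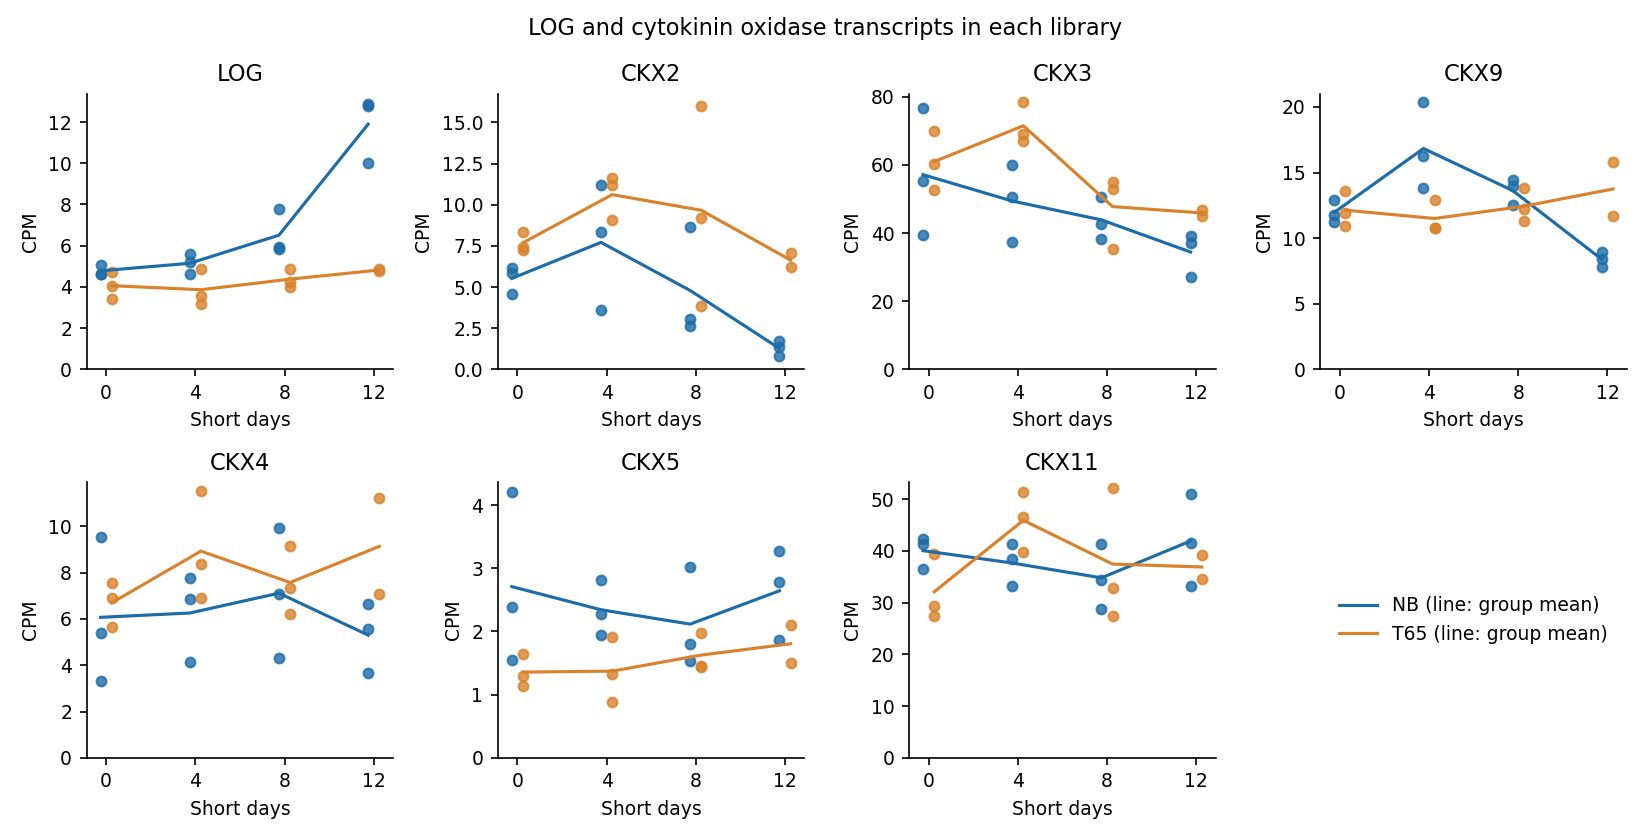
CPM of each of the 7 genes (vertical axes, each from 0) against the number of short days (horizontal axes). Points are libraries and lines join group means, in blue for NB and orange for T65. LOG in NB day 12 lies between 10.0 and 12.9 CPM, above every other library, and CKX2 in NB day 12 lies between 0.788 and 1.70 CPM, below every other library.

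LOG (LOC_Os01g40630, chromosome 1) rose in NB by day 12 and did not pass the test in T65. In NB it stood at 5.08, 4.62 and 4.64 CPM on day 0, at 4.63, 5.20 and 5.61 CPM on day 4, at 5.85, 7.76 and 5.92 CPM on day 8, and at 12.9, 12.8 and 10.0 CPM on day 12. In T65 it stood at 3.42, 4.03 and 4.73 CPM on day 0, at 3.19, 4.86 and 3.54 CPM on day 4, at 4.26, 4.00 and 4.87 CPM on day 8, and at 4.78 and 4.86 CPM on day 12. The NB day 12 libraries were above all the others, and every T65 library was at or below 4.87 CPM. The order of the group means ran from T65 day 4 (3.87 ± 0.88 CPM, SD, n = 3) up to NB day 8 (6.51 ± 1.08, n = 3) and NB day 12 (11.9 ± 1.63, n = 3). Between them, from low to high, came T65 day 0, T65 day 8, NB day 0, T65 day 12 and NB day 4. The libraries overlapped in 5 of the 7 pairs of neighbours in that order, and the highest mean was 3.07 times the lowest.

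Against day 0, LOG in NB was 2.48-fold higher on day 12, a log2 fold change of 1.31 ± 0.17 (SE) with an adjusted p of 2.57e-05 (edgeR's quasi-likelihood test, Benjamini-Hochberg adjustment over all genes tested). The earlier days did not pass. The log2 fold change was 0.11 ± 0.17 on day 4 (adjusted p = 0.696 by edgeR) and 0.45 ± 0.17 on day 8 (adjusted p = 0.194 by edgeR), where all 3 libraries were nonetheless above those of day 0. From day 8 to day 12 LOG rose by 0.86 ± 0.17 on the log2 scale (adjusted p = 0.0114, edgeR). The day-12 rise held when any 1 of the 6 NB libraries of these days was left out, at 1.25 to 1.42 on the log2 scale. Within the 16 libraries it was 1.43 (adjusted p = 0.000399, edgeR), whereas the step from day 8 to day 12 was 0.90 with an adjusted p of 0.132 by edgeR. That step also missed the threshold without NB day 8 replicate 1 or 3 or NB day 12 replicate 1 or 2, at log2 fold changes of 0.79 to 0.80 and adjusted p of 0.0508 to 0.0869 by edgeR, and with only the compared groups in the model (0.86, adjusted p = 0.0708).

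CKX2 (LOC_Os01g10110, chromosome 1), the oxidase of the grain-number locus Gn1a, fell in NB by day 12. NB had 6.13, 4.58 and 5.87 CPM on day 0, 8.35, 3.59 and 11.2 CPM on day 4, 8.65, 2.66 and 3.06 CPM on day 8, and 1.33, 0.788 and 1.70 CPM on day 12. T65 had 8.34, 7.28 and 7.45 CPM on day 0, 9.05, 11.6 and 11.2 CPM on day 4, 9.17, 3.82 and 16.0 CPM on day 8, and 6.23 and 7.05 CPM on day 12. The NB day 12 libraries, with 20, 13 and 31 counts, were below all the others. In CPM, replicates lay closer together on days 0 and 12 than in NB day 4, NB day 8 and T65 day 8 (SD 3.83, 3.35 and 6.08 CPM). Relative to their level those of NB day 12 were not tight, at 0.788 to 1.70 CPM around a mean of 1.27 CPM. Group means ran from 1.27 ± 0.461 CPM (SD, n = 3) in NB day 12 to 10.6 ± 1.38 CPM (n = 3) in T65 day 4, an 8.35-fold range, and 4 of the 7 pairs of neighbours overlapped.

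Against day 0, CKX2 in NB was 4.3-fold lower on day 12, a log2 fold change of -2.10 ± 0.51 (SE, adjusted p = 0.0095, edgeR). On day 4 the log2 fold change was 0.46 ± 0.43 and on day 8 it was -0.26 ± 0.45, with adjusted p of 0.481 and 0.805 by edgeR. Between day 8 and day 12 the log2 difference of -1.85 ± 0.53 did not pass (adjusted p = 0.0726, edgeR). Without NB day 12 replicate 2, which had the lowest value, the day-12 change was -1.84 with an adjusted p of 0.0501 by edgeR. Within the 16 libraries it was -2.38 (adjusted p = 0.0235, edgeR).

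CKX9 (LOC_Os05g31040, chromosome 5), which strigolactone induces in rice and which acts there on tillering, rose in NB on day 4 and fell by day 12. Its NB libraries had 12.9, 11.2 and 11.8 CPM on day 0, 20.4, 13.8 and 16.3 CPM on day 4, 14.0, 12.5 and 14.4 CPM on day 8, and 7.83, 8.91 and 8.41 CPM on day 12. Its T65 libraries had 11.9, 13.6 and 10.9 CPM on day 0, 12.9, 10.8 and 10.8 CPM on day 4, 11.3 to 13.8 CPM on day 8, and 15.8 and 11.7 CPM on day 12. All NB day 4 libraries were above, and all NB day 12 libraries below, those of NB day 0. The 4 group means of T65 stayed between 11.5 and 13.8 CPM.

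In NB the log2 fold change of CKX9 from day 0 was 0.48 ± 0.14 (SE) on day 4 (adjusted p = 0.0202, edgeR) and -0.51 ± 0.15 on day 12 (adjusted p = 0.0241, edgeR). From day 8 to day 12 it fell by 0.70 ± 0.15 on the log2 scale (adjusted p = 0.0195, edgeR). The day-4 rise missed the threshold without NB day 0 replicate 2 (0.44, adjusted p = 0.0822 by edgeR), NB day 0 replicate 3 (0.47, 0.0564) or NB day 4 replicate 1 (0.35, 0.118), and with only the compared groups in the model (0.48, 0.103). The day-12 fall did so without replicate 1 or 3 of NB day 0 (adjusted p = 0.118 and 0.0572, edgeR) or of NB day 12 (0.0992 and 0.0685), and within the 16 libraries (-0.51, adjusted p = 0.131). The step from day 8 to day 12 missed it without replicate 1 or 3 of NB day 8 (-0.68 and -0.65, adjusted p = 0.0892 and 0.0769 by edgeR), without NB day 12 replicate 1 (-0.65, 0.111), within the 16 libraries (-0.66, 0.238) and with only the compared groups in the model (-0.70, 0.0512).

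CKX3 (LOC_Os10g34230, chromosome 10) fell in NB by day 12, by 0.73 ± 0.21 on the log2 scale or 1.66-fold (adjusted p = 0.0243, edgeR). Its NB values were 76.6, 39.4 and 55.4 CPM on day 0, 60.1, 37.5 and 50.6 CPM on day 4, 50.7, 38.3 and 42.6 CPM on day 8, and 39.0, 27.2 and 37.1 CPM on day 12. In T65 they were 52.7, 70.0 and 60.2 CPM on day 0, 67.0, 69.1 and 78.4 CPM on day 4, 52.9, 35.3 and 55.1 CPM on day 8, and 44.9 and 46.9 CPM on day 12. The day 12 libraries were below those of day 0 in both cultivars. In NB the highest day 12 library (39.0 CPM) was close to the lowest of day 0 (39.4 CPM). Without NB day 0 replicate 1, at 76.6 CPM, the NB change was -0.45 (adjusted p = 0.219, edgeR), and it also missed the threshold without NB day 0 replicate 3 (adjusted p = 0.0552) or NB day 12 replicate 2 or 3 (0.124 and 0.0501). Within the 16 libraries it was -0.78 (adjusted p = 0.0906, edgeR).

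The remaining oxidases, CKX4, CKX5 and CKX11, did not pass the test in any comparison between days or cultivars. CKX4 (LOC_Os01g71310, chromosome 1), known in rice for its part in crown root formation, had group means of 5.3 to 9.14 CPM. CKX5 (LOC_Os01g56810, chromosome 1) was low, with group means of 1.36 to 2.71 CPM. All 4 of its T65 means were below all 4 of its NB means, and on day 0, where the libraries ranged from 1.13 to 1.65 CPM in T65 and from 1.55 to 4.2 CPM in NB, the log2 difference was -0.99 ± 0.35 (adjusted p = 0.0991, edgeR). CKX11 (LOC_Os08g35860, chromosome 8), which acts on leaf senescence and grain number in rice, had group means of 32.1 to 45.9 CPM. In T65 it stood at 27.4, 39.5 and 29.4 CPM on day 0 and at 39.8, 51.4 and 46.6 CPM on day 4, with no overlap, and the log2 fold change of 0.52 ± 0.20 did not pass (adjusted p = 0.448, edgeR). For each of CKX3, CKX4, CKX5 and CKX11, all 7 pairs of neighbouring groups overlapped in the order of means, and for CKX9 6 of 7 did. Neighbours in such an order are the groups closest in mean. The share over all genes was not computed for any of these counts, those of LOG and CKX2 included.

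**Figure D2:**
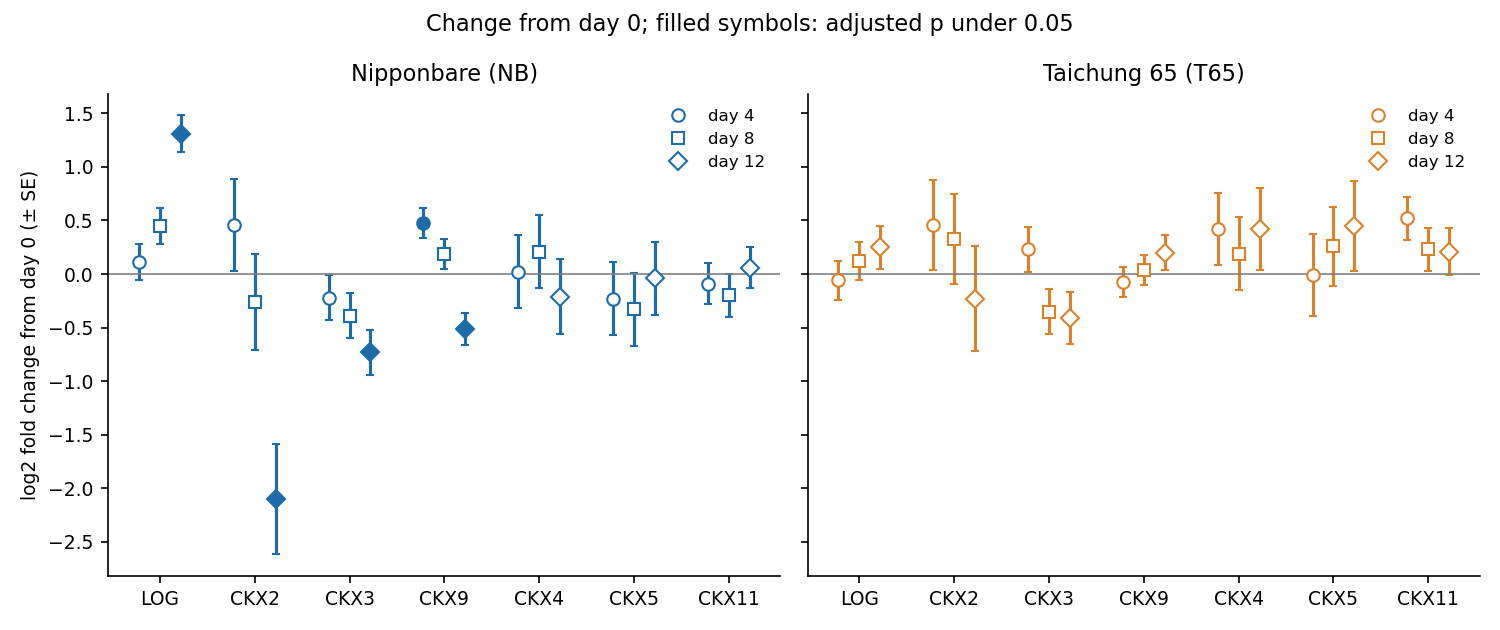
Log2 fold change from day 0 (vertical axis, with bars of 1 SE) of the 7 genes in NB and T65 on days 4, 8 and 12. Filled symbols passed an adjusted p of 0.05 in edgeR. All 5 filled symbols are in NB, at CKX9 on day 4 and at LOG, CKX2, CKX3 and CKX9 on day 12.

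In NB on day 12, 4 of the 7 genes passed, LOG upwards and 3 oxidases downwards, against 13.2% of all genes tested (6.38% higher and 6.86% lower). All 4 had no overlap between the libraries of both days, as had 38.3% of all genes. On day 4 CKX9 alone passed, against 20.3% of all genes, and it was also the 1 gene of the 7 without overlap (32.7% of all genes). On day 8 none of the 7 passed in edgeR or DESeq2, 1 (LOG) had an unadjusted p under 0.05, and 2.21% of all genes passed. LOG was also the 1 gene without overlap there (25.1% of all genes). Between day 8 and day 12 2 of the 7 passed, LOG upwards and CKX9 downwards, against 2.08% of all genes. The median log2 fold change over the 7 genes on day 12 was -0.21, beside -0.01 over all genes tested. Markers of green leaf and of handling also differed from NB day 0 on days 4, 8 and 12. The secondary wall genes CESA4, CESA7 and CESA9 did not pass on any of these days. The 5 loci listed as green leaf genes, of which 1 had a matched symbol, summed to 36.5 to 36.7 CPM on day 0. They summed to 41.3 to 114 CPM on day 4, 92.4 to 138 CPM on day 8 and 60.1 to 151 CPM on day 12. Of the 5, 2 passed upwards on each of the later days. The heat shock gene HSP101 had means of 10.7 CPM on day 0, 42.8 CPM on day 4 (log2 fold change 1.97 ± 0.29, passed) and 15.3 CPM on day 12 (0.52 ± 0.30, not passed). The wound-responsive gene JAZ8 had means of 42.7, 13.1 and 8.67 CPM, with log2 fold changes of -1.68 ± 0.34 and -2.29 ± 0.36, both passed. On day 8, 1 of these 2 handling genes was lower. The part of these markers in the results was not tested.

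In T65 none of the 7 genes passed on day 4, 8 or 12 in edgeR or in DESeq2. At an unadjusted p under 0.05 there was 1 (CKX11) on day 4, 0 on day 8 and 0 on day 12. Calls were few across the genome too, at 0.149%, 1.06% and 5.13% of all genes on days 4, 8 and 12. The libraries did not overlap with those of day 0 in 2 of the 7 on day 4 (CKX2 and CKX11, against 20.2% of all genes) and in 3 on day 12 (LOG, CKX2 and CKX3, against 38.8%). LOG in T65 on day 12 had a log2 fold change of 0.25 ± 0.20 (SE, 95% interval -0.188 to 0.687), with both libraries just above those of day 0. CKX2 had -0.23 ± 0.49 (interval -1.27 to 0.818) and CKX3 had -0.41 ± 0.24 (interval -0.913 to 0.0981), and in both genes the day 12 libraries were below all of day 0. The intervals are not adjusted for the number of genes tested. With 2 libraries on day 12, changes in T65 anywhere within them remain compatible with the data. Between day 8 and day 12 in T65 none of the 7 passed in edgeR or DESeq2, and 0 had an unadjusted p under 0.05, against 0.736% of all genes.

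On day 12 LOG, CKX2 and CKX9 differed between the cultivars. They are 3 of the 7 genes, against 30.7% of all genes tested, so the count does not set the 7 apart. LOG was 2.47-fold lower in T65 (log2 difference -1.30 ± 0.20, SE, adjusted p = 7.43e-05, edgeR), with 4.78 and 4.86 CPM in T65 and at least 10.0 CPM in NB. CKX2 was 5.12-fold higher in T65 (2.36 ± 0.56, adjusted p = 0.00338, edgeR), with at least 6.23 CPM in T65 and at most 1.70 CPM in NB. CKX9 was 1.66-fold higher in T65 (0.73 ± 0.16, adjusted p = 0.00205, edgeR), with at least 11.7 CPM in T65 and at most 8.91 CPM in NB. CKX3 and CKX4 were higher in every T65 library than in any NB library, but their differences of 0.41 ± 0.24 and 0.76 ± 0.39 did not pass (adjusted p = 0.196 and 0.147, edgeR). Values did not overlap between the cultivars in 5 of the 7 genes, against 56.7% of all genes. Within the 16 libraries the differences were -1.41 for LOG, 2.64 for CKX2 and 0.74 for CKX9, all past the threshold. That of CKX9 depended on 1 library, as it was 0.47 without T65 day 12 replicate 1 (adjusted p = 0.0967, edgeR). HSP101 was higher in T65 on day 12 (136 CPM, beside 15.3 CPM in NB, log2 difference 3.14 ± 0.31), while JAZ8, at 16.8 and 8.67 CPM, did not pass (0.99 ± 0.40). Of the 5 green leaf loci, 2 were lower in T65, with a median log2 difference of -0.97 and sums of 62.7 to 66.4 CPM in T65 and 60.1 to 151 CPM in NB. Within T65, HSP101 rose from 33.4 CPM on day 0 and JAZ8 stood at 22.9 CPM then. The part of these genes in the differences was not tested.

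Before day 12 at most 1 of the 7 genes passed between the cultivars. On day 0 none passed in edgeR or DESeq2, 1 (CKX5) had an unadjusted p under 0.05, and 6.53% of all genes passed. On day 4, 3 (LOG, CKX3 and CKX9) had an unadjusted p under 0.05. Of these CKX9 was lower in T65 by 0.54 ± 0.14 on the log2 scale (adjusted p = 0.0141, edgeR), the 1 gene of the 7 to pass, against 15.4% of all genes. That call was lost without NB day 4 replicate 1 (-0.39, adjusted p = 0.0721 by edgeR) or T65 day 4 replicate 2 or 3 (-0.49 and -0.50, adjusted p = 0.0562 and 0.0652), and with only the compared groups in the model (-0.56, adjusted p = 0.0953). On day 8 none passed in edgeR or DESeq2, 2 (LOG and CKX2) had an unadjusted p under 0.05, and 4.19% of all genes passed. The day-8 difference of LOG was -0.58 ± 0.18 (adjusted p = 0.0777, edgeR) and that of CKX2 was 1.07 ± 0.44 (adjusted p = 0.255, edgeR), in the same directions as on day 12. On days 0 and 4 LOG differed by -0.24 ± 0.18 and -0.42 ± 0.18, and CKX2 by 0.48 ± 0.42 on both days. These differences had the same directions too and did not pass.

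Whether the change from day 0 differed between the cultivars was tested as an interaction, in which 6.81% of all genes passed on day 12. LOG was the 1 gene of the 7 to pass. Its change in T65 was lower than that in NB by 1.06 ± 0.27 (SE, adjusted p = 0.0223, edgeR). For CKX9 the T65 change exceeded that of NB by 0.72 ± 0.22 (adjusted p = 0.0511) and for CKX2 by 1.88 ± 0.71 (adjusted p = 0.112), neither of which passed. The LOG interaction missed the threshold without NB day 0 replicate 3 (-1.04, adjusted p = 0.0511 by edgeR), NB day 12 replicate 1 (-1, 0.0507), T65 day 0 replicate 3 (-0.93, 0.0577) or T65 day 12 replicate 1 (-1.05, 0.0506) or 2 (-1.07, 0.1). Within the 16 libraries it was -0.94 and missed the threshold. These leave out T65 day 0 replicates 2 and 3, so only 1 library of that group remained. On day 4 none of the 7 passed in edgeR or DESeq2, against 1.83% of all genes, and 2 (CKX9 and CKX11) had an unadjusted p under 0.05. On day 8 none passed in edgeR or DESeq2, 0 had an unadjusted p under 0.05, and 0.00876% of all genes passed.

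**Figure D3:**
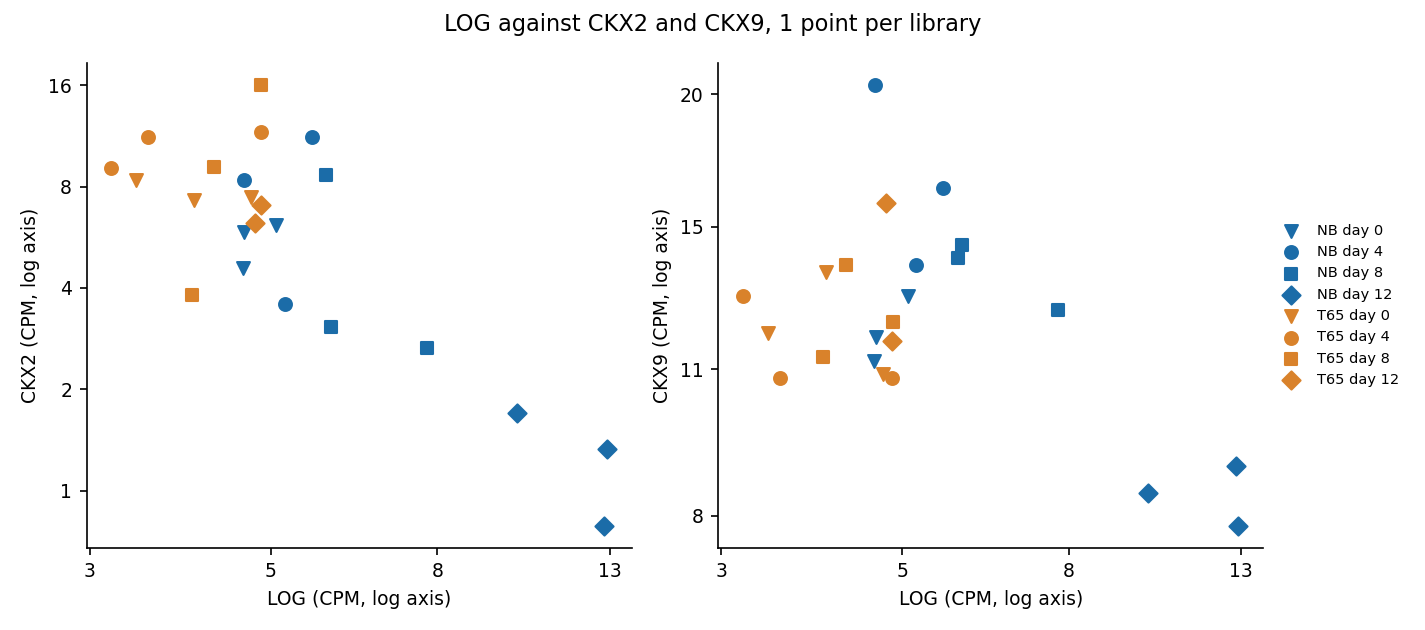
CKX2 (left) and CKX9 (right) against LOG, in CPM on log axes, with 1 point per library, colour for cultivar and symbol for day. The 3 NB day 12 libraries sit at the lower right of both panels, with LOG from 10.0 to 12.9 CPM, CKX2 from 0.788 to 1.70 CPM and CKX9 from 7.83 to 8.91 CPM.

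Across libraries LOG ran opposite to CKX2, and most of that came from NB day 12. With log2 CPM centred within cultivar, Pearson's r between LOG and CKX2 was -0.72 over 23 libraries, -0.86 over the 12 of NB and 0.07 over the 11 of T65. Without NB day 12 it was -0.43 over 9 NB libraries. For LOG and CKX9 the corresponding values were -0.67, -0.78, 0.04 and -0.10. The oxidases did not vary as 1 block. CKX2 and CKX3 varied together in both cultivars (r = 0.79 in NB and 0.67 in T65, and 0.62 in NB without day 12). CKX2 and CKX9 did so in NB (0.81, and 0.49 without day 12) and not in T65 (-0.16), and CKX2 and CKX11 in T65 (0.74) and not in NB (-0.16). These values describe libraries that share groups and depth, so they carry no p, and the differences between cultivars in r were not tested.

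By the same measure, the tested loci most like LOG over the 23 libraries were LOC_Os01g11940 (r = 0.90), LOC_Os12g27102 (0.90) and LOC_Os05g13620 (0.89). For each of them r was higher in NB (0.94, 0.93 and 0.96) than in T65 (0.59, 0.63 and 0.41). The locus most like CKX2 was LOC_Os03g03880 (0.90, with 0.93 in NB and 0.68 in T65). That most like CKX9 was LOC_Os02g43010 (0.90, with 0.96 in NB and 0.46 in T65). For CKX3 the highest r was 0.87 (LOC_Os10g29470, 0.85 in NB and 0.90 in T65). For CKX11 it was 0.89 (LOC_Os09g23220, 0.91 in NB and 0.89 in T65). CKX4 and CKX5 had no locus as close, with highest values of 0.73 (LOC_Os08g29615) and 0.71 (LOC_Os07g44750).

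**Figure D4:**
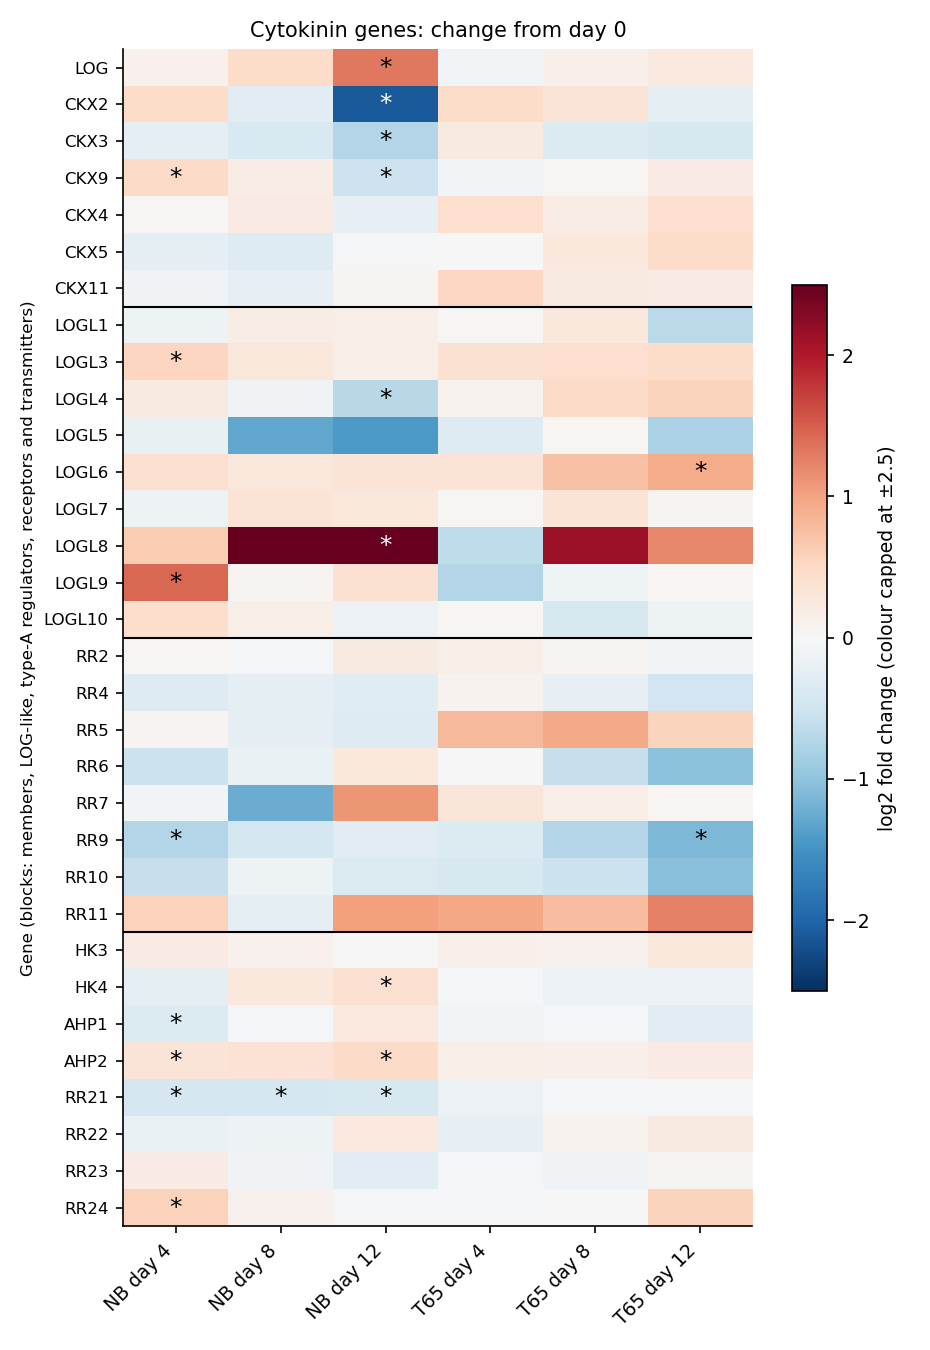
Log2 fold change from day 0 (colour, capped at ±2.5) of the 7 genes and of the other cytokinin genes with a matched symbol (rows) on days 4, 8 and 12 in each cultivar (columns). Stars mark an adjusted p under 0.05 in edgeR. Among the 7 genes the stars lie in NB alone, whereas LOGL6 and RR9 carry one in T65 on day 12.

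The LOG-like genes, which encode enzymes of the same family as LOG, did not move with it as a group. Of the 9 with a matched symbol, 1 was higher and 1 lower on NB day 12 (13.2% of all genes passed). Their median log2 fold change was 0.15. On NB day 4, 2 were higher and 0 lower (20.3% of all genes passed). In T65 on day 12, 1 was higher and 0 lower (5.13% of all genes passed). LOGL8 (LOC_Os05g51390) had 2 counts over the NB day 0 libraries and 38 over those of day 12, 26.2 times as many once scaled for depth (95% counting interval 6.76 to 224, adjusted p = 0.00115 by edgeR). In T65 it had 2 and 3 counts. LOGL4 (LOC_Os03g49050) went the other way to LOG in NB, from 13.3 ± 3.46 CPM (SD, n = 3) to 8.21 ± 0.897 CPM (n = 3). Its log2 fold change there was -0.69 ± 0.18 (adjusted p = 0.0166, edgeR), and its change in T65, from 6.75 to 9.81 CPM, differed from that in NB by 1.25 ± 0.28 (adjusted p = 0.0128, edgeR). LOGL6 (LOC_Os04g43840), known in rice for its effect on awn length, rose in T65 from a mean of 11.8 to 22.9 CPM by day 12 (0.93 ± 0.24, adjusted p = 0.0265, edgeR). Its T65 day 12 libraries stood at 15.1 and 30.6 CPM, far apart, and the lower was near the highest of day 0 (13.5 CPM).

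Of the type-A response regulators, which cytokinin induces and which dampen its signal, 8 had a matched symbol. The rest of that list is counted with the unmatched loci below. None of the 8 passed on NB day 12 in either direction. Their median log2 fold change was -0.03, and 13.2% of all genes passed that day, so 0 of 8 says little about the list. On NB day 4, 1 of 8 was lower (20.3% of all genes passed), and in T65 on day 12, 1 was lower (5.13%). That gene was RR9 (LOC_Os11g04720) both times. In T65 RR9 went from 15.1 ± 4.7 to 6.83 ± 0.508 CPM (SD, n = 3 and 2) by day 12 (-1.12 ± 0.28, adjusted p = 0.0231, edgeR). RR9 has a near-identical copy, RR10, so its counts are uncertain.

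The list of cytokinin receptors, phosphotransfer proteins and type-B regulators held 8 genes with a matched symbol. Of these, 2 were higher and 1 lower on NB day 12, against 13.2% of all genes. None passed in T65 on day 4, 8 or 12, when 0.149%, 1.06% and 5.13% of all genes did. The phosphotransfer gene AHP2 (LOC_Os09g39400) rose in NB from 107 to 150 CPM (0.48 ± 0.11, adjusted p = 0.00476, edgeR). The receptor kinase gene HK4 (LOC_Os03g50860) rose there from 94 to 124 CPM (0.40 ± 0.10, adjusted p = 0.0143, edgeR). RR21 (LOC_Os03g12350), a type-B regulator that turns on cytokinin targets, fell there from 46.6 to 35.5 CPM (-0.40 ± 0.10, adjusted p = 0.0143, edgeR). Each of these changes was smaller than that of LOG. Among 22 further listed cytokinin loci without a matched symbol, 15 were tested. Of these, 3 were higher and 0 lower on NB day 12, against 6.38% and 6.86% of all genes.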

How the data were processed

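RNA-seq of 30 labelled samples was deposited as 23 files of counts per MSU locus, some merged from several runs by the authors. Per the submitters' processing notes, HTSeq, TopHat2, Bowtie2, edgeR 3.6.4 and R 3.1.0 were used, and the deposited values are raw counts. The sources used here do not give the genome build, the annotation, the time of day or the use of strand, and without strand antisense partners cannot be separated. Reads in no gene (4.72 to 5.51% of assigned reads) and ambiguous reads (2.01 to 2.44%) were left out.

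Counts were tested with edgeR 4.0.16 (TMM, filterByExpr, glmQLFit and glmQLFTest) in R 4.3.3, in 1 model of 8 groups with 15 residual degrees of freedom and a common biological coefficient of variation of 12.7%. P-values were adjusted by Benjamini-Hochberg over 22839 genes within each of 15 comparisons, at 0.05. The steps were tested on simulated data. Log2 CPM used a prior count of 2, and an SE is the log2 fold change divided by the square root of F. Alternatives included DESeq2 1.42.0, other scaling, filter, samples and terms, and leaving out libraries. The labels do not say that replicates came from separate plants, so p-values measure the spread between libraries. Libraries of a group were not duplicates (chi-square per gene 5.61 to 48.4). Counting intervals cover counting error only.

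The genes, lists and tests were chosen with earlier results of these data known. All 7 genes were described in every comparison. Of other cytokinin genes, at most 3 per list were named, those with the largest changes on day 12 among those that passed. Symbols were recalled and matched by chromosome and relative place to RefSeq assembly ASM3414082v1, which matched 44 of 70 listed loci, including all 7. The 22 cytokinin loci without a match, among them all synthesis genes and DST, a regulator of CKX2 that was to be named in any case, are given as counts.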

Additional observations from a re-analysis of the deposited data

Results flagged for a closer look

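The change of LOG from day 0 to day 12 differed between the cultivars, by -1.06 ± 0.27 (SE) on the log2 scale for T65 against NB (adjusted p = 0.0223, edgeR's interaction test). LOG rose from 4.78 ± 0.258 to 11.9 ± 1.63 CPM (SD, n = 3 and 3) in NB and stood at 4.06 ± 0.658 and 4.82 ± 0.0531 CPM (n = 3 and 2) in T65. The value kept its direction in all 18 alternatives run and stayed past the threshold in 12. Leaving out any of 5 libraries, or keeping the 16 libraries with the higher share of multiply aligned reads, ended the call. The 16 leave out T65 day 0 replicates 2 and 3, so only 1 library of that group remained.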

How the results depend on the processing

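The 12 values past the threshold kept their direction in all 158 alternatives run and their side of the threshold in 120. Values that had not passed were past it in 23 of 1304. LOG, CKX2 and CKX9 differed between cultivars on day 12, and LOG in NB on day 12 against day 0, under every alternative with all libraries.

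The count of the 7 genes past the threshold moved as follows. With only the groups compared in the model it went from 1 to 0 on NB day 4, from 2 to 0 for NB day 12 against day 8, from 1 to 0 between cultivars on day 4, and from 1 to 3 in the day-12 interaction. With no filter on low counts it went from 0 to 1 on NB day 8, T65 day 4, T65 day 12, between cultivars on days 0 and 8 and in the day-4 interaction, from 1 to 2 between cultivars on day 4 and in the day-12 interaction, and from 3 to 5 between cultivars on day 12. Within the 16 libraries it went from 4 to 2 on NB day 12 and from 2 to 0 for NB day 12 against day 8. In the day-12 interaction LOG no longer passed there, but the 16 leave out T65 day 0 replicates 2 and 3. Calls over all genes moved too: within the 16 libraries from 3024 to 1187 on NB day 12 and from 476 to 39 for NB day 12 against day 8, and with no filter from 505 to 1703 on NB day 8. DESeq2 gave 2 in the day-12 interaction and 3 for NB day 12 against day 8. Leaving out 1 library gave 0 to 1 on NB day 4, 2 to 4 on NB day 12, 0 to 3 for NB day 12 against day 8, 2 to 3 between cultivars on day 12, and 0 to 1 between cultivars on days 0, 4 and 8 and in the interactions of days 4 and 12. The causes were not tested.

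Pairing by replicate number was not shown, since deviations of same-numbered libraries correlated above 0.1 in 9 of 33 pairs. With the replicate number as a block within each cultivar, the count went from 1 to 2 in the day-12 interaction. Between cultivars on day 4 it went from 1 to 0 (CKX9, -0.50, adjusted p = 0.0558 by edgeR). That model sets the cultivars against each other at the level of replicate 1, so it does not test pairing there. CKX2 and CKX5 are limited most by depth, with 13 to 31 counts per library for CKX2 on NB day 12.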
